A study of Rattus norvegicus with 12 samples.

Results

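The ribosome biogenesis factors described here are the proteins that build ribosomes without being part of the finished particle. They were taken as a list of 55 gene symbols, of which 54 matched a gene in the count table of 32883 genes and 52 passed the filter on low counts that left 15257 genes for testing. Heatr1 had no matching symbol and was not analysed here. Nhp2 and Ebna1bp2 matched but fell below the filter, so every count of tested members excludes them. The members were chosen by function with earlier results of these libraries known, including the comparison of MCT-Fer-1 with MCT-Vehicle, so all values below are descriptions of these genes and none is offered as independent support for a direction. The measured values taken to have entered that choice are the differences between MCT-Fer-1 and MCT-Vehicle, so counts of calls in that comparison are given for completeness and support nothing.

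The samples are RNA-seq libraries of whole lung from wild-type rats in 3 groups of 4, all labelled 25 days. Control lungs carried no stated agent. MCT-Vehicle lungs came from rats given monocrotaline, a plant alkaloid whose liver metabolites injure the pulmonary endothelium and which is a standard agent for pulmonary hypertension in rats, and then the vehicle of ferrostatin-1 for 10 days. MCT-Fer-1 lungs came from rats given monocrotaline and then ferrostatin-1, a radical-trapping inhibitor of lipid peroxidation and ferroptosis, for 10 days. Effects of monocrotaline and of the vehicle cannot be told apart in MCT-Vehicle against Control, because no group had only 1 of them. The sample descriptions give each library of a group a different lung number but do not state that each number is a separate animal. If it is not, every p-value measures only how far these libraries differ, which may be technical. Control lungs carry a number series apart from those of the monocrotaline groups, and what it reflects is not stated.

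Depth ran over 16640022 to 18229992 counts in the Control libraries, 13654695 to 24016262 in MCT-Vehicle and 11601929 to 70627239 in MCT-Fer-1. The lung label was borne out by epithelial transcripts such as Sftpc, the gene of surfactant protein C, at a mean of 15550 CPM (counts scaled to a common library size) in Control. Transcripts of heart muscle summed to 429 CPM in MCT-Vehicle 2 and 271 CPM in Control 4, against 17.4 to 82.2 CPM in the other libraries. Their part in the results was not tested beyond leaving both libraries out. Since whole lung holds many cell types, fewer cells of a type and less RNA per cell cannot be told apart in any value below.

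Ribosome assembly starts in the nucleolus, where RNA polymerase I transcribes a long precursor of the ribosomal RNAs. Small nucleolar ribonucleoproteins (snoRNPs) modify that precursor, the box C/D class by methylation and the box H/ACA class by pseudouridylation, while large assemblies of helicases, GTPases and scaffold proteins cut and fold it into the small and large subunits. The genes of these factors are widely known to be expressed together and to be induced in growing cells, with the transcription factor MYC among their regulators.

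Most members had their highest group mean in MCT-Vehicle. Of 52 tested members, 45 had the highest mean there, 5 in Control and 2 in MCT-Fer-1, where the same shares over all 15257 genes were 36.7%, 37.8% and 25.5%. The order MCT-Vehicle, then Control, then MCT-Fer-1 held for 35 members. These rankings draw on the difference between MCT-Fer-1 and MCT-Vehicle, known when the list was chosen, so nothing is read from them. Summed over members, expression was 2565, 2459, 2624 and 2448 CPM in Control, 2777, 2827, 2596 and 3086 CPM in MCT-Vehicle, and 2379, 2667, 2338 and 2386 CPM in MCT-Fer-1. MCT-Vehicle 3 lay inside the Control range and MCT-Fer-1 2 lay above it, so the 3 groups of sums overlapped. Abundant genes weigh most in the sum, and in MCT-Fer-1 2 Ncl (382 CPM) and Npm1 (406 CPM) lay above all their Control values. In that library the small-subunit sum of 698.7 CPM lay inside its Control range of 678.6 to 731.3 CPM. The large-subunit sum of 659.2 CPM lay just above its Control range of 607.1 to 657.2 CPM. Group means of the sum were 2524 ± 85.1 CPM in Control, 2822 ± 202 CPM in MCT-Vehicle and 2443 ± 151 CPM in MCT-Fer-1 (SD, n = 4 each).

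**Figure D1:**
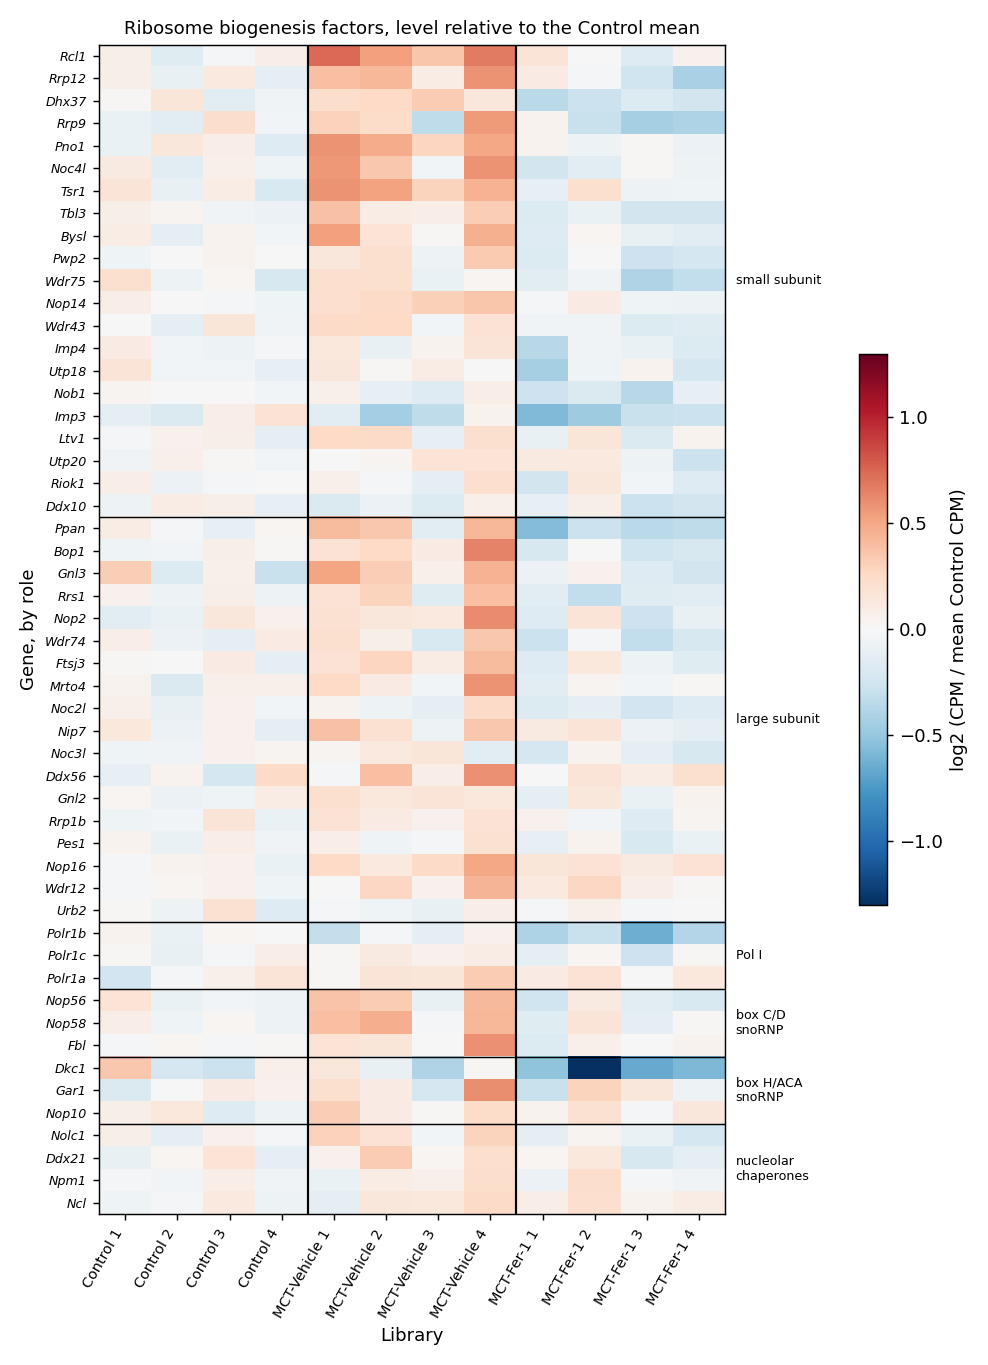
Heat map of the 52 tested members (rows, by role) in the 12 libraries (columns, by group), coloured by the log2 ratio of CPM to the Control mean. MCT-Vehicle 4 holds the highest value of 28 members and MCT-Fer-1 3 the lowest of 18.

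The elevation was uneven among the MCT-Vehicle libraries. The median member stood 0.19, 0.16, 0.01 and 0.32 above its Control mean on the log2 scale in MCT-Vehicle 1 to 4. In MCT-Fer-1 1 to 4 the corresponding medians were -0.13, 0.04, -0.13 and -0.13. MCT-Vehicle 3 therefore sat near Control and MCT-Fer-1 2 sat apart from the other libraries of its group. MCT-Vehicle 3 was also the shallowest library of its group and had its highest macrophage marker sum, and the part of either in these values was not tested.

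In MCT-Vehicle against Control, 6 members rose (Rcl1, Pno1, Tsr1, Nop14, Nop16 and Nop58) and 0 fell at a Benjamini-Hochberg adjusted p below 0.05 in edgeR's quasi-likelihood test. That is 11.5% of the tested members, where 10.3% of all genes rose and 8.28% fell, so the share of members that rose was near the background. At an unadjusted p below 0.05 there were 20 members, all higher in MCT-Vehicle, or 38.5%. Over all genes the share in either direction was 32.1%, or 4902 genes, of which only 2621 were higher, so the 2 shares are not like measures. By direction alone, 46 members were higher and 6 lower, where 52.4% of all genes were higher. The median log2 difference was 0.18 over members and 0.02 over all genes, with a range from -0.20 (Imp3) to 0.59 (Rcl1). The 4 values of each group did not overlap, with MCT-Vehicle higher, for 8 members, or 15.4%, beside 11.5% of all genes. DESeq2 called 12 members higher, beside 12.3% of all genes, namely the 6 that rose and Ftsj3, Bop1, Dhx37, Noc4l, Rrp12 and Bysl. Without MCT-Vehicle 3 the count that rose was 19, beside 9.90% of all genes, and without MCT-Vehicle 4 the median over members was 0.12.

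In MCT-Fer-1 against MCT-Vehicle, edgeR called 0 members and 0 of all genes (0%), and limma voom called 0 members. At an unadjusted p below 0.05 edgeR gave 31 members and 1835 genes in all. DESeq2 called 13 members, all lower, where it called 0.898% of all genes lower and 0.655% higher. On the log2 scale 50 members were lower and 2 higher, with a median of -0.27 over members and -0.01 over all genes. The lowest was Dkc1 at -0.67 and the highest Urb2 at 0.03. All 4 MCT-Fer-1 values lay below all 4 MCT-Vehicle values for 12 members, where 3.00% of all genes did so, and the reverse held for 0 members and 3.11% of all genes. Nothing is read from these counts, since the list was chosen with this comparison known. Without MCT-Vehicle 3, edgeR called 3 members lower, beside 0.194% of all genes.

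In MCT-Fer-1 against Control, 0 members rose, where 6.67% of all genes did, and 2 fell (Polr1b and Dkc1), or 3.85% of members beside 4.12% of all genes. At an unadjusted p below 0.05 there were 8 members, or 15.4%, and 0 of them were higher in MCT-Fer-1. Over all genes the share in either direction was 25.2%, or 3850 genes, of which 2031 were higher. By direction, 13 were higher and 39 lower, with a median of -0.08 over members and 0.00 over all genes. MCT-Fer-1 values lay below Control without overlap for 9 members, or 17.3%, beside 8.54% of all genes, and above it for 1 member, beside 10.6%. DESeq2 called 6 members lower, beside 6.58% of all genes, namely Polr1b, Dkc1, Imp3, Ppan, Nob1 and Dhx37. The MCT-Fer-1 mean lay within the range of the 4 Control values for 30 of 52 members, among them 5 of the 6 that rose in MCT-Vehicle. The 3 comparisons share libraries in pairs, so their values are given side by side and not as separate evidence. Without MCT-Fer-1 2 the median over members was -0.13.

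**Figure D2:**
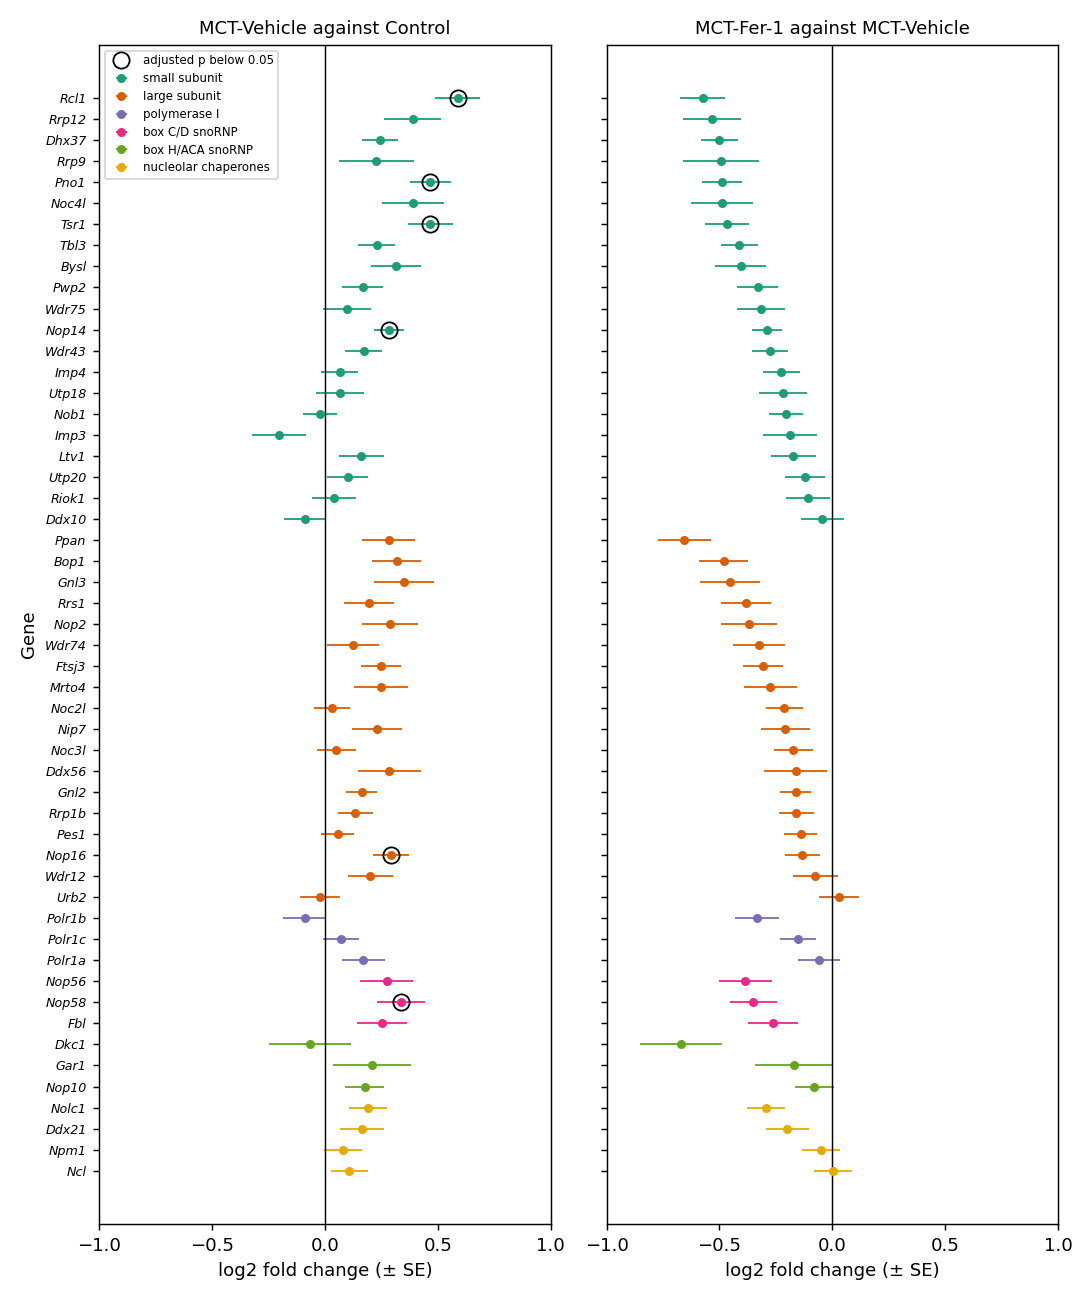
Log2 differences between group means (x axis) for the 52 tested members (y axis, coloured by role), MCT-Vehicle against Control on the left and MCT-Fer-1 against MCT-Vehicle on the right, with bars of 1 standard error from the edgeR fit; circled points passed an adjusted p of 0.05. On the right 50 points lie left of 0, and those of Urb2 (0.03) and Ncl (0.00) do not.

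Factors of the small subunit were 21 of the 52 tested members and held 4 of the 6 that rose in MCT-Vehicle. That is 19.0% of the small-subunit factors, beside 10.3% of all genes, and rests on 4 calls. Of 21 tested, 18 were higher than Control, with a median log2 difference of 0.17, and 21 were lower in MCT-Fer-1 than in MCT-Vehicle, with a median of -0.32. Rcl1 (ENSRNOG00000015491), a cyclase-like protein needed for an early cleavage of the precursor towards 18S rRNA, was at 26.2, 22.3, 24.5 and 26.3 CPM in Control, 41.5, 36.0, 32.0 and 39.8 CPM in MCT-Vehicle, and 27.8, 24.8, 22.2 and 25.8 CPM in MCT-Fer-1. All 4 MCT-Vehicle values lay above all 8 others, and the MCT-Fer-1 values overlapped Control. Rcl1 rose by 0.59 ± 0.10 (log2, SE) in MCT-Vehicle against Control (adjusted p = 0.00171), and the difference of MCT-Fer-1 from Control was 0.01 ± 0.10 (adjusted p = 0.951).

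Pno1 (ENSRNOG00000005524), an RNA-binding protein that partners the nuclease Nob1 at the 3′ end of 18S rRNA, had the same layout. Its values were 19.7, 23.1, 22.2 and 18.6 CPM in Control, 31.3, 29.2, 25.4 and 29.5 CPM in MCT-Vehicle, and 21.6, 19.95, 21.2 and 19.8 CPM in MCT-Fer-1. The MCT-Vehicle values again stood above all others. The rise against Control was 0.47 ± 0.09 (log2, SE; adjusted p = 0.00356), and the MCT-Fer-1 mean stood 0.49 below that of MCT-Vehicle. Nob1 itself was at a log2 difference of -0.02 in MCT-Vehicle against Control and -0.21 in MCT-Fer-1 against MCT-Vehicle.

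Tsr1 (ENSRNOG00000002980), a GTPase-like factor that sits on the late small-subunit precursor, was at 63.8, 53.3, 60.7 and 49.5 CPM in Control, 85.2, 81.7, 69.3 and 77.8 CPM in MCT-Vehicle, and 52.9, 65.5, 54.4 and 54.5 CPM in MCT-Fer-1. No MCT-Vehicle value overlapped either other group. It rose by 0.47 ± 0.10 (log2, SE; adjusted p = 0.00606). Nop14 (ENSRNOG00000012147), a component of the small-subunit processome, had means of 29.7 ± 1.32 CPM in Control, 36.1 ± 1.66 CPM in MCT-Vehicle and 29.6 ± 1.68 CPM in MCT-Fer-1 (SD, n = 4 each). Its rise of 0.28 ± 0.07 (log2, SE; adjusted p = 0.0122) was smaller than those of Rcl1, Pno1 and Tsr1, its MCT-Vehicle values stood above all 8 others, and it was no longer called without both MCT-Vehicle 2 and Control 4 or after thinning.

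Dhx37 (ENSRNOG00000022171), the helicase that releases the U3 snoRNA from the small-subunit precursor, differed from these in where MCT-Fer-1 lay relative to Control. It was at 24.5, 27.1, 21.9 and 23.4 CPM in Control, 28.4, 29.1, 30.4 and 26.95 CPM in MCT-Vehicle, and 19.0, 20, 21.4 and 20.6 CPM in MCT-Fer-1. Every MCT-Fer-1 value was below every Control value, while the lowest MCT-Vehicle value was just under the highest Control value. Neither difference from Control passed edgeR's test, at 0.24 ± 0.08 for MCT-Vehicle (adjusted p = 0.0529) and -0.26 ± 0.08 for MCT-Fer-1 (adjusted p = 0.0596; log2, SE). DESeq2 called both, with adjusted p of 0.0394 and 0.0322.

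Rrp12 (ENSRNOG00000048495), a repeat protein of late subunit precursors with a part in their export, ranged over 20.1 to 24.0 CPM in Control, 23.6 to 32.9 CPM in MCT-Vehicle and 16.4 to 23.6 CPM in MCT-Fer-1. The difference of 0.39 ± 0.13 between MCT-Vehicle and Control missed the threshold (adjusted p = 0.0512). At the other end of the small-subunit range, Imp3, a partner of the U3 particle, was at -0.20 in MCT-Vehicle against Control and -0.19 in MCT-Fer-1 against MCT-Vehicle, so its Control mean was the highest of the 3.

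**Figure D3:**
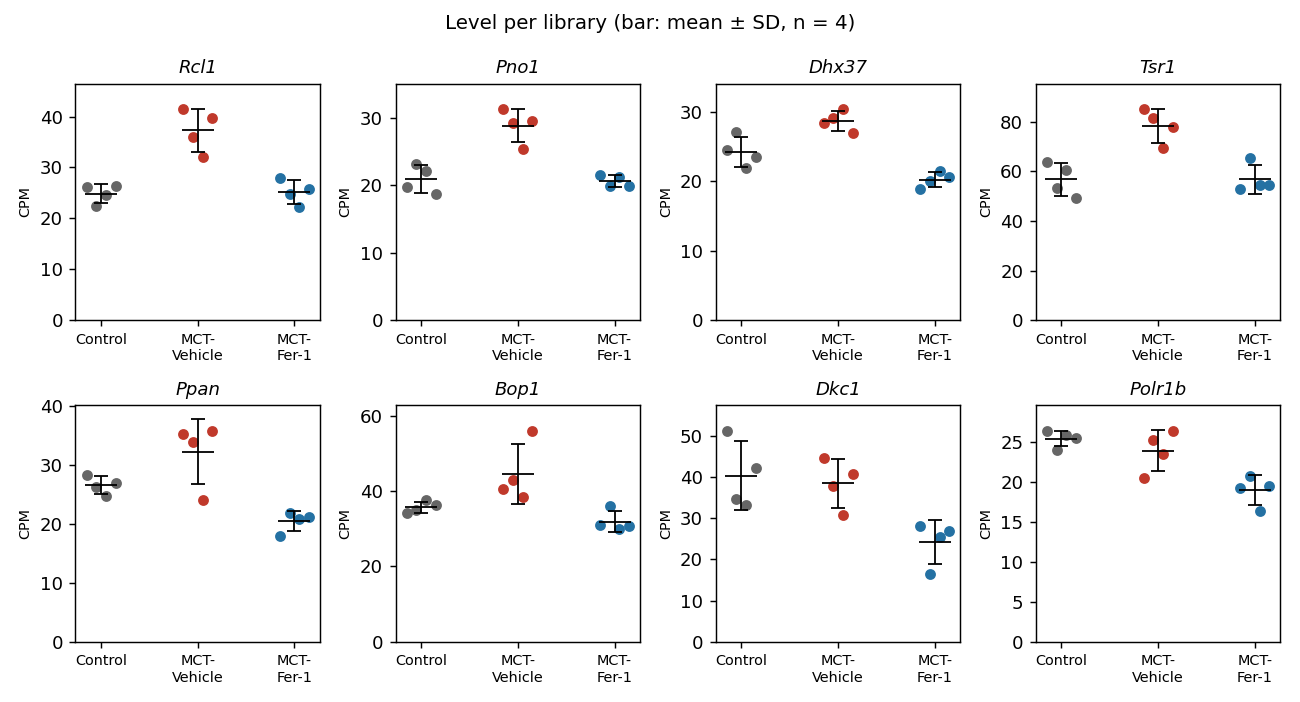
CPM per library (points) with group means and SD (bars, n = 4) for 8 members, y axes starting at 0. The 4 MCT-Vehicle points of Rcl1, Pno1 and Tsr1 lie above all others, while the MCT-Fer-1 points of Dkc1 lie below all others.

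Among factors of the large subunit, 17 of 18 tested members were higher in MCT-Vehicle than in Control, with a median log2 difference of 0.22. By the test 1 rose, or 5.56%, beside 10.3% of all genes. In MCT-Fer-1 17 of 18 were lower than in MCT-Vehicle, with a median of -0.21. The member that rose was Nop16 (ENSRNOG00000017284), a nucleolar factor of the early large-subunit precursor, at 36.8, 38.7, 39.0 and 35.3 CPM in Control, 44.9, 41.0, 44.5 and 53.2 CPM in MCT-Vehicle, and 41.7, 42.7, 40.5 and 42.5 CPM in MCT-Fer-1. Unlike the small-subunit genes that rose, its MCT-Fer-1 values stood above all 4 Control values, the only tested member for which they did. The rise in MCT-Vehicle was 0.29 ± 0.08 (log2, SE; adjusted p = 0.0213) and was lost without Control 4 (adjusted p = 0.0657), with only the 2 groups fitted and with every library thinned to the smallest total. In MCT-Fer-1 the difference from Control was 0.16 ± 0.08 (adjusted p = 0.224).

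Ppan (ENSRNOG00000020608), a nucleolar RNA-binding factor of the large-subunit precursor, had the second-lowest difference of all members between MCT-Fer-1 and MCT-Vehicle. It was at 28.4, 26.3, 24.8 and 27.1 CPM in Control, 35.3, 33.9, 24.1 and 35.9 CPM in MCT-Vehicle, and 18.01, 21.9, 20.8 and 21.1 CPM in MCT-Fer-1. MCT-Vehicle 3 lay below all Control values and the other 3 MCT-Vehicle values above them, while all MCT-Fer-1 values lay below both groups. The log2 difference of MCT-Fer-1 was -0.66 ± 0.12 from MCT-Vehicle and -0.37 ± 0.12 from Control (SE; adjusted p = 0.0611 for the latter).

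Bop1 (ENSRNOG00000021773), which with Pes1 and Wdr12 forms the complex needed for maturation of the large-subunit rRNAs, was at 34.3, 34.8, 37.6 and 36.2 CPM in Control, 40.6, 42.9, 38.5 and 56.0 CPM in MCT-Vehicle, and 30.9, 36.0, 29.9 and 30.8 CPM in MCT-Fer-1. MCT-Vehicle lay above both other groups without overlap, but the rise of 0.32 ± 0.11 over Control missed the threshold (adjusted p = 0.0608). Its partners differed less, since Pes1 was at 0.06 and Wdr12 at 0.20 in MCT-Vehicle against Control, and at -0.14 and -0.07 in MCT-Fer-1 against MCT-Vehicle. Gnl3 (ENSRNOG00000028461), the nucleolar GTPase nucleostemin, ranged over 41.6 to 63.2 CPM in Control, 53.1 to 72.3 CPM in MCT-Vehicle and 43.0 to 52.7 CPM in MCT-Fer-1. Its difference between MCT-Vehicle and Control was 0.35 ± 0.13 (log2, SE; adjusted p = 0.0851).

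Of the 3 RNA polymerase I subunits on the list, 2 were higher in MCT-Vehicle than in Control and all 3 were lower in MCT-Fer-1 than in MCT-Vehicle, at log2 differences of -0.06 (Polr1a), -0.33 (Polr1b) and -0.15 (Polr1c). Together with 5 further subunits from another list, 7 of 8 were higher in MCT-Vehicle and 8 of 8 lower in MCT-Fer-1 than in MCT-Vehicle. That other list holds 13 polymerase I genes in all, and its remaining genes were less uniform. Over the 13, 7 were higher and 6 lower in MCT-Vehicle than in Control, where 52.4% of all genes were higher. Between MCT-Fer-1 and MCT-Vehicle 11 of the 13 were lower and 2 higher, where 52.2% of all genes were lower. Polr1a, the largest catalytic subunit, was at 30.5 to 40.7 CPM in Control, 36.5 to 45.3 CPM in MCT-Vehicle and 36.1 to 41.3 CPM in MCT-Fer-1, with overlap between all groups. Polr1c, a subunit shared with RNA polymerase III, was at 22.3 to 25.3 CPM, 24.0 to 25.8 CPM and 19.7 to 24.2 CPM in the same order. Polr1b (ENSRNOG00000018349), the second-largest subunit, was at 26.4, 24.1, 25.9 and 25.6 CPM in Control, 20.6, 25.3, 23.5 and 26.5 CPM in MCT-Vehicle, and 19.3, 20.8, 16.4 and 19.6 CPM in MCT-Fer-1. Its MCT-Fer-1 values lay below all Control values, and it fell by 0.42 ± 0.10 on the log2 scale against Control (SE; adjusted p = 0.0151). In MCT-Vehicle against Control the difference was -0.09 ± 0.10 (adjusted p = 0.563). The call in MCT-Fer-1 was lost when both MCT-Vehicle 2 and Control 4 were left out (adjusted p = 0.0509) and with every library thinned to the smallest total (adjusted p = 0.106).

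All 3 core proteins of the box C/D snoRNP were higher in MCT-Vehicle than in Control and lower in MCT-Fer-1 than in MCT-Vehicle, with medians of 0.27 and -0.35 on the log2 scale. Nop58 (ENSRNOG00000016486) was at 58.2, 52.8, 55.8 and 52.5 CPM in Control, 71.9, 76.3, 54.2 and 74.2 CPM in MCT-Vehicle, and 49.3, 61.8, 50.6 and 55.5 CPM in MCT-Fer-1. MCT-Vehicle 3 lay within the Control range and the other 3 above it. Nop58 rose by 0.34 ± 0.11 (log2, SE; adjusted p = 0.0417), a call that held in 3 of the 12 fits that left out 1 library, with an adjusted p of up to 0.105. Its partner Nop56 was at 0.27 ± 0.12 (adjusted p = 0.125), and Fbl, the methyltransferase fibrillarin, at 0.25 ± 0.11 (adjusted p = 0.131). Fbl was at 32.9 to 34.2 CPM in Control, 33.6 to 50.7 CPM in MCT-Vehicle and 29.7 to 35.02 CPM in MCT-Fer-1, with its highest value in MCT-Vehicle 4.

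The box H/ACA snoRNP held the lowest member. Dkc1 (ENSRNOG00000055562), the pseudouridine synthase dyskerin, which is also part of telomerase, was at 51.2, 34.6, 33.1 and 42.3 CPM in Control, 44.6, 37.7, 30.7 and 40.7 CPM in MCT-Vehicle, and 28.0, 16.5, 25.5 and 26.9 CPM in MCT-Fer-1. All 4 MCT-Fer-1 values lay below all 8 others, and MCT-Vehicle overlapped Control. Dkc1 fell by 0.74 ± 0.18 on the log2 scale in MCT-Fer-1 against Control (SE; adjusted p = 0.0229), while its difference between MCT-Vehicle and Control was -0.07 ± 0.18 (adjusted p = 0.835). That call was lost without Control 1, without Control 4 and without MCT-Fer-1 3, with an adjusted p of up to 0.0624. Its partners did not share the layout, since Nop10 differed by 0.10 ± 0.09 and Gar1 by 0.04 ± 0.17 between MCT-Fer-1 and Control. Nhp2, the remaining core protein, had 0 to 15 counts in 11 libraries and 226 counts, or 13.4 CPM, in Control 4, so no level is read from it.

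None of the 4 nucleolar chaperones passed the edgeR test in any comparison, and the median log2 difference was 0.14 in MCT-Vehicle against Control and -0.13 in MCT-Fer-1 against MCT-Vehicle. Ncl, the RNA-binding protein nucleolin, was at 313 to 359 CPM in Control, 300.3 to 391.5 CPM in MCT-Vehicle and 339 to 382 CPM in MCT-Fer-1. Npm1, the chaperone nucleophosmin, was at 335 to 367 CPM, 325 to 406 CPM and 329 to 406 CPM in the same order. Their log2 differences between MCT-Vehicle and Control were 0.11 ± 0.08 and 0.08 ± 0.08, and between MCT-Fer-1 and MCT-Vehicle 0.00 ± 0.08 and -0.05 ± 0.08. Nolc1, a phosphoprotein that binds snoRNPs, was at 0.19 ± 0.08 and -0.29 ± 0.08, and the helicase Ddx21 at 0.16 ± 0.10 and -0.20 ± 0.10 (all SE).

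A second list held 97 other ribosome biogenesis genes of which 93 were tested. In MCT-Vehicle against Control 7 rose (Utp11, Riok3, Bud23, Gtpbp4, Mak16, Sdad1 and Polr1g) and 2 fell (Sbds and Ubtf), or 7.53% and 2.15%, below the 10.3% and 8.28% of all genes. Their median log2 difference was 0.06, beside 0.18 for the 52 members and 0.02 for all genes. Between MCT-Fer-1 and MCT-Vehicle edgeR called 0 of them, 24 had an unadjusted p below 0.05, all lower, and 80 of 93 were lower with a median of -0.15. Values of MCT-Fer-1 lay below those of MCT-Vehicle without overlap for 15.1% of them. Bud23, a methyltransferase of 18S rRNA, rose by 0.51 ± 0.16 in MCT-Vehicle against Control (adjusted p = 0.0467). Sdad1, a large-subunit factor, rose by 0.44 ± 0.10 (adjusted p = 0.0101), and Polr1g, a polymerase I subunit, by 0.43 ± 0.12 (log2, SE; adjusted p = 0.0243). Polr1g stood 0.61 ± 0.12 lower in MCT-Fer-1 than in MCT-Vehicle.

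Myc, which encodes the transcription factor that binds E-boxes in many of these promoters, did not pass the test. It was at 44.8, 33.8, 44.5 and 38.0 CPM in Control, 62.3, 52.9, 39.6 and 44.9 CPM in MCT-Vehicle, and 37.8, 38.9, 49.7 and 34.6 CPM in MCT-Fer-1. The differences were 0.31 ± 0.15 for MCT-Vehicle over Control (adjusted p = 0.176) and -0.31 ± 0.15 for MCT-Fer-1 against MCT-Vehicle, and all groups overlapped. Of 12 tested genes in a list of the MYC network, which also holds Maf1, 0 rose and 2 fell in MCT-Vehicle against Control. The 2 are 16.7% of the list, beside 8.28% of all genes that fell and 10.3% that rose. Nothing is read from so few calls. Mxi1, a MAX-binding antagonist of MYC, fell by 0.47 ± 0.10 (adjusted p = 0.0066), and Maf1, a repressor of RNA polymerase III, fell by 0.38 ± 0.07 (adjusted p = 0.0036; log2, SE).

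Proliferation genes had a different layout from the biogenesis factors. Of 17, 15 rose in MCT-Vehicle and 16 rose in MCT-Fer-1 against Control, and between the treated groups edgeR called 0, with 13 of 17 higher in MCT-Fer-1. Their sum was 310 to 415 CPM in Control, 590.4 to 731 CPM in MCT-Vehicle and 608 to 778 CPM in MCT-Fer-1. Both monocrotaline groups thus lay above Control for proliferation genes, while the member sum of MCT-Fer-1 overlapped Control. Macrophage markers also moved with the groups, since 7 of 8 rose in MCT-Vehicle and their sum was 866 to 952 CPM in Control, 1214 to 1817 CPM in MCT-Vehicle and 1236 to 1368 CPM in MCT-Fer-1. Like the members, 7 of 8 macrophage markers were lower in MCT-Fer-1 than in MCT-Vehicle. Their log2 differences ran from -0.73 (Folr2) to 0.34 (Marco), with Csf1r at -0.02 and Mrc1 at -0.03. Values of C1qa, C1qb and C1qc, the chains of complement C1q, did not overlap between these groups, while those of the other macrophage markers did. That is 37.5% of the list, beside 3.00% of all genes. Endothelial markers had the reverse layout, with 5 of 5 lower in MCT-Vehicle than in Control, of which 2 fell by the test (Cdh5 and Tek), and 5 of 5 higher in MCT-Fer-1 than in MCT-Vehicle. Their sum was 2894 to 3212 CPM in Control, 1915 to 2324 CPM in MCT-Vehicle and 2182 to 3148 CPM in MCT-Fer-1. Red cell markers fell in MCT-Vehicle against Control for 4 of 4, and 4 of 4 were higher in MCT-Fer-1 than in MCT-Vehicle. Mitochondrially encoded transcripts took 3.23% to 3.42% of counts in Control, 3.70% to 4.21% in MCT-Vehicle and 3.33% to 4.28% in MCT-Fer-1. The part of any of these in the members' values was not tested.

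**Figure D4:**
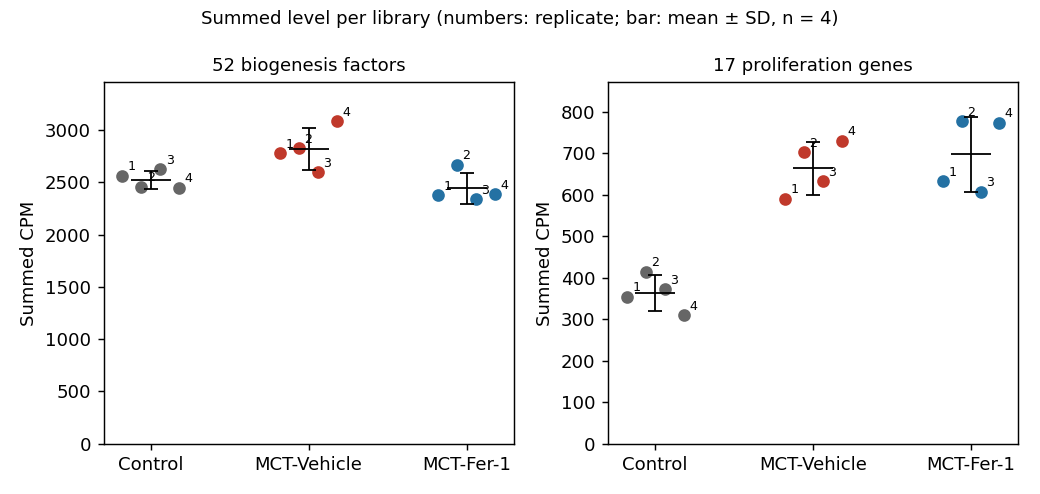
Summed CPM per library (points, replicate numbers beside them) with group means and SD (bars, n = 4) for the 52 tested members on the left and 17 proliferation genes on the right, y axes starting at 0. Proliferation sums of both monocrotaline groups lie above Control, whereas 3 of the 4 member sums of MCT-Fer-1 lie below those of Control and that of MCT-Fer-1 2, at 2667 CPM, lies above. Ncl and Npm1 weigh most in the member sums.

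Because most members shared an order of group means, their promoters were searched for short motifs. RefSeq windows of GRCr8, from 250 bases before to 50 bases after the gene start, were matched for 50 of 55 members. The palindromic E-box CACGTG was in 16 of them (32.0%), beside 9.24% of the 10774 tested genes with a window and 6.42% of all 33469 windows. Its copies lay near the start, with 12 of 17 (70.6%) between 50 bases before and 50 after it, beside 34.0% over all windows. The windows below hold the E-box nearest the start in 8 members of several roles, written 5′ to 3′ on the gene's strand with the E-box in capitals, and include the 3 whose calls held under every setting tried.
Rcl1, chr1:236238114-236238143, plus strand: cctgttctaaacCACGTGgacgcgtcgggg
Pno1, chr14:95819885-95819914, minus strand: ggcacaacctcgCACGTGttccagtggttg
Tsr1, chr10:60258798-60258827, plus strand: gtttactcggtgCACGTGggcagttagaat
Rrp12, chr1:250655298-250655327, minus strand: gctgagaatacaCACGTGggttctgctgtg
Bysl, chr9:20880361-20880390, plus strand: tagccggcttcaCACGTGtaaactttgtgg
Fbl, chr1:92597416-92597445, plus strand: ggcgcttttttcCACGTGtgaaagcctgag
Gnl3, chr16:6219790-6219819, minus strand: agttccagttcgCACGTGgcgcccgagacg
Noc3l, chr1:245997673-245997702, minus strand: ttgagctctgggCACGTGtgtgtttcctac

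The E-box starts 12 bases after the start in Rcl1, 2 in Pno1, 21 in Tsr1 and 4 in Rrp12, and 25 bases before it in Gnl3. Among tested members with a window, the median log2 difference between MCT-Fer-1 and MCT-Vehicle was -0.37 for the 15 with an E-box and -0.21 for the 32 without. In MCT-Vehicle against Control the medians were 0.25 and 0.17. For the ETS-type motif described next the medians were -0.23 for 21 members with it and -0.24 for 26 without, and 0.17 and 0.19 in MCT-Vehicle against Control. With and without GCATGCG (7 and 40 members) they were -0.21 and -0.24, and 0.10 and 0.19 in MCT-Vehicle against Control. With and without CCAAT (13 and 34 members) they were -0.22 and -0.27, and 0.16 and 0.18. With and without TATAAA (2 and 45 members) they were -0.44 and -0.22, and 0.36 and 0.17. Of the other motifs only TATAAA had a gap in the direction of that of the E-box. It rests on 2 members, Nop58 and Rrp12, and Rrp12 also holds an E-box. All these medians describe members chosen with the values known, so nothing is read from the gaps, and a match is not evidence of binding.

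**Figure D5:**
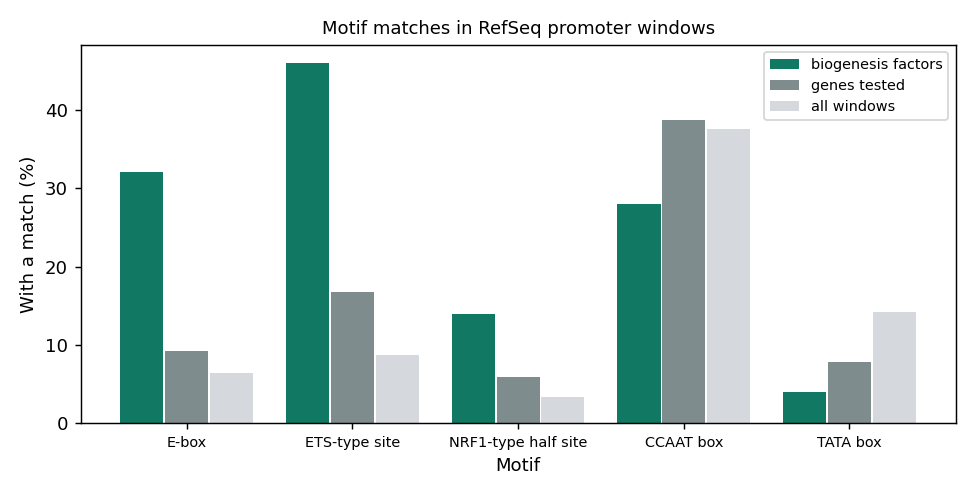
Percent holding each motif on either strand (bars), for members and for tested genes counted per gene (any window with a match), and for all RefSeq windows counted per window. The E-box is in 32.0% of members with a window and 6.42% of all windows, whereas the CCAAT box is in 28.0% and 37.5%.

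Of the other motifs, each searched on both strands, the ETS-type CCGGAAG was in 46.0% of the members with a window. Beside it were 16.7% of the tested genes with a window and 8.75% of all windows. A gene counted if any of its windows matched, so the share of windows is a different measure. GCATGCG, part of the NRF1 site, was in 14.0%, beside 5.97% and 3.33%. CCAAT was in 28.0%, beside 38.7% and 37.5%, and TATAAA in 4.0%, beside 7.89% and 14.2%. None of these motifs contains another, though matches may share end bases. The 250 bases before the start are given for Dkc1 and Ppan, the members with the lowest values in MCT-Fer-1 against MCT-Vehicle, with E-box and ETS matches in capitals. Dkc1 holds 1 E-box and 2 ETS matches on the opposite strand, and Ppan holds neither motif in this stretch.
Dkc1, chrX:157751401-157751650, plus strand: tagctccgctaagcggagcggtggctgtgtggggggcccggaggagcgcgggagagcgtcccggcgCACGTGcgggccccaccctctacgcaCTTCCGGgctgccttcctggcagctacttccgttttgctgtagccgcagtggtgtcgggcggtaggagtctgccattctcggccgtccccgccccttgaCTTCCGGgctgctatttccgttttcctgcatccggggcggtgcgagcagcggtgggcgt
Ppan, chr8:27699897-27700146, plus strand: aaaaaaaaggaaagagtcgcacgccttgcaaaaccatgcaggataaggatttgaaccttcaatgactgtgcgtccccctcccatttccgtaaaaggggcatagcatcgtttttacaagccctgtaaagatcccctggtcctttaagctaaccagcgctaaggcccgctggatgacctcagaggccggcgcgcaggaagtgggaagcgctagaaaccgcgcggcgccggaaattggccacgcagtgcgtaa

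Several members share their loci with other transcripts, which bears on how counts were assigned. In the RefSeq annotation 7 of 55 members (12.7%) contain snoRNA genes, 23 in all, beside 1.79% of 23154 protein-coding genes. The hosts are Tsr1, Wdr43, Gnl3, Ppan, Nop56, Nop58 and Ncl, with 5 snoRNA genes each in Nop56 and Nop58. A further coding gene overlaps 13 members, such as Srr at Tsr1, Pbrm1 at Gnl3 and Mroh1 at Bop1, and 20 members have named pseudogenes, with 20 for Npm1, 7 for Fbl and 3 for Dkc1. Neither the strand setting nor the treatment of reads with several matches is stated, so values of these members are uncertain to that extent.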

How the data were processed

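RNA-seq of 12 whole-lung libraries was used as the raw read counts per gene that the authors deposited, per the file headers. Libraries were prepared at a university core, per the labels' protocols. Aligner, counter, strand setting and genome build: not given in the sources used here. The authors' group means in the same table were not used.

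Counts were filtered by edgeR's filterByExpr (15257 of 32883 genes kept), scaled by TMM and fitted with edgeR's robust quasi-likelihood model, 1 coefficient per group over all 12 libraries (9 residual degrees of freedom). A gene was called when its Benjamini-Hochberg adjusted p over all genes tested was below 0.05. CPM use TMM-scaled library sizes. Tested members had 95 to 25072 counts per library, and 3 counts, the floor, equal 0.0420 to 0.259 CPM, for counting error only. Software was edgeR 4.0.16, DESeq2 1.42.0 and limma 3.58.1 in R 4.3.3. On data simulated for MCT-Vehicle against Control, the fit recovered 46.3% of 1.5-fold, 68.7% of 2-fold and 97.0% of 4-fold changes, with 8 false calls among 15132 genes. The changed genes were drawn at random from all genes tested, so these shares do not describe the members.

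Members, lists and tests were chosen with earlier results of these data known. The named members were Polr1a, Polr1b, Polr1c, Fbl, Ncl, Npm1, Dhx37, Rcl1 and Ppan, and in each role list of at least 4 the 2 with the largest absolute log2 fold change in MCT-Vehicle against Control and in MCT-Fer-1 against MCT-Vehicle, besides extremes of a range. In the other lists they were the called gene with the largest change, and Myc. Tsr1, Nop14, Nop16, Nop58, Nop56, Nob1, Pes1, Wdr12, Nhp2, the other genes called in the further lists (such as Maf1), and marker genes were named after their values were seen. List symbols with no match were not analysed here. Alternatives were DESeq2, limma voom with quality weights, other scalings, no filter, 2-group fits, a replicate block, each library left out, and thinning to 11601929 counts. Leaving out both MCT-Vehicle 2 and Control 4 was added after seeing the data. Promoter windows and neighbouring genes came from RefSeq (GRCr8).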

Additional observations from a re-analysis of the deposited data

Results flagged for a closer look

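In 5 of 60 groups of 4 libraries checked, 1 library stood apart from the rest by a gap above the 95% limit of Dixon's test, where chance gives about 3 such groups. In MCT-Fer-1 2 the sum of the members, in which Ncl and Npm1 weigh most, was 2667 CPM, with the next at 2386 CPM (gap 0.855 of the range). The same library was highest in its group for Npm1 at 405.8 CPM, next to 340.5 CPM, and for Bop1 at 35.95 CPM, next to 30.85 CPM. Ppan was lowest in MCT-Vehicle 3 at 24.09 CPM, with the next at 33.93 CPM. Nhp2 was highest in Control 4 at 13.38 CPM, with the next Control library at 0.22 CPM.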

How the results depend on the processing

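Over 22 settings, 44 to 49 of 52 members were higher in MCT-Vehicle than in Control, 47 to 51 were lower in MCT-Fer-1 than in MCT-Vehicle, and 34 to 45 were lower in MCT-Fer-1 than in Control. Members that rose in MCT-Vehicle against Control numbered 12 by DESeq2 and 10 by limma voom (10.2% of all genes rose there), and 4 to 19 when each library was left out (19 without MCT-Vehicle 3). Rcl1, Pno1 and Tsr1 were called in each of the 12 left-out fits and in each of the 9 other settings. Between MCT-Fer-1 and MCT-Vehicle DESeq2 called 13 members, and the left-out fits 0 to 3. Members that fell in MCT-Fer-1 against Control numbered 6 by DESeq2, 5 by limma voom (6.85% of all genes), 4 with only the 2 groups fitted (4.87%), 1 with libraries thinned to the smallest total (3.33%), 0 without both MCT-Vehicle 2 and Control 4 (2.15%), and 1 to 3 with each library left out (1 without Control 1, without Control 4 or without MCT-Fer-1 3). The left-out fits gave medians over members of 0.12 to 0.24 for MCT-Vehicle against Control, -0.31 to -0.23 for MCT-Fer-1 against MCT-Vehicle and -0.13 to -0.06 for MCT-Fer-1 against Control. Differences near 0 changed sign. Dkc1 in MCT-Vehicle against Control was 0.0192 by limma voom and -0.1504 to 0.0698 with each library left out. In MCT-Fer-1 against Control thinning gave 0.0524 for Fbl, -0.0101 for Rcl1 and 0.0382 for Ddx21, and limma voom gave -0.0008 for Gar1. There the left-out fits gave -0.034 to 0.0393 for Fbl, -0.0475 to 0.0585 for Npm1, -0.035 to 0.0702 for Rcl1, -0.0718 to 0.0307 for Pno1, -0.1885 to 0.0201 for Gnl3, -0.0544 to 0.1252 for Gar1 and -0.0999 to 0.0283 for Ddx21. The cause of these changes was not tested. Same-numbered libraries did not deviate together, with correlations of -0.06 to 0.10 over 12 pairs, beside -0.17 to 0.15 over the 36 other pairs between groups. That covers the replicate numbers of the titles only and cannot exclude another grouping of the libraries. With the replicate block 6 members rose in MCT-Vehicle against Control, beside 10.1% of all genes. In the same fit 0 were called between MCT-Fer-1 and MCT-Vehicle, beside 0% of all genes. In MCT-Fer-1 against Control 3 fell, beside 4.27% of all genes. Small changes can be missed at this size. Among genes drawn at random from all tested, 46.3% of simulated 1.5-fold changes were recovered in MCT-Vehicle against Control. That share does not describe the members, none of which differed by 2-fold in this comparison. With every library thinned to the smallest total, 6 members still rose there (8.73% of all genes), with a median of 0.17.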
